A study of Mus musculus with 18 samples.

Results

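The genes described here were the collagen chain genes, each of which encodes 1 chain of a collagen trimer. A gene was taken when its mouse symbol read Col, a number, a and a number, and when at least 10 reads, summed over both sequencing lanes, were counted in 3 or more of the 18 libraries. Of the 47729 genes counted, 44 had such a symbol, 37 of the 44 met the minimum, and all 37 also passed the separate filter on low counts that left 16937 genes for testing. The 7 below the minimum were *Col2a1*, *Col6a6*, *Col10a1*, *Col19a1* and *Col26a1*, with 10 reads in no library, and *Col9a1* and *Col22a1*, with 10 reads in 1 library. The members nearest to the minimum were *Col17a1*, which reached 10 reads in 8 libraries, and *Col6a5* and *Col9a3*, which reached it in 12. Neither the symbol nor the minimum used the groups of the study.

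Collagens are the main structural proteins of connective tissue, and their chains fold as triple helices in the endoplasmic reticulum before secretion. Fibrillar collagens (types I, III and V) form the fibrils of the lamina propria and submucosa, type IV collagen forms the sheet-like network of basement membranes under the epithelium and around smooth muscle and vessels, and type VI collagen forms beaded microfilaments between them. In the colon the fibrillar chains are known as products mainly of fibroblasts and smooth muscle cells, while a few chains, such as the hemidesmosome protein *Col17a1*, belong to epithelial cells.

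RNA-Seq was done on mouse colon, with 3 libraries in each of 6 groups. Mice were WT or lacked claudin-2 (*Cldn2*KO), a tight junction protein that forms pores for cations and water, and the methods place all lines on a C57BL/6 background with littermate controls. Both genotypes were studied as untreated controls, in recovery from colitis induced by dextran sodium sulfate (DSS), which injures the colonic epithelium, and after AOM/DSS, the colitis-associated cancer protocol of 1 dose of azoxymethane (AOM, 10 mg/kg) and 3 cycles of 2.5% DSS. The labels repeat the AOM/DSS protocol for all 18 samples, so the DSS schedule of the recovery groups is not given in the sources used here, nor is whether tumor or surrounding mucosa was taken after AOM/DSS. Nothing in the labels ties a library to 1 animal, and p-values therefore measure the spread between these libraries.

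The 18 libraries had between 17.6 M and 27.4 M counted reads, with a median of 19.6 M. *Cldn2* stood at 44.5 to 504 CPM (counts scaled to a common library total) in the 9 WT libraries and at 0.0555 to 0.557 CPM in the 9 *Cldn2*KO libraries. *Hoxb13* and *Hoxd13*, which are known to mark the hindmost gut, were at 0.502 CPM or below in all 6 recovery libraries and in WT control 2, and at 192 CPM or above in the other 11 libraries. The study's text places the recovery RNA in the distal colon. Recovery and the absence of these genes cannot be told apart in *Cldn2*KO, and in WT only by WT control 2. *Xist* exceeded 100 CPM in 6 libraries (WT recovery 2 and 3, *Cldn2*KO recovery 2 and 3, *Cldn2*KO AOM/DSS 2 and 3), while the other 12 had no more than 1.16 CPM. Comparisons of recovery with control, of AOM/DSS with control in *Cldn2*KO and of the genotypes after AOM/DSS were therefore not balanced for *Xist*. The methods state that the mice were matched for sex.

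Per kilobase of exon, *Col3a1* was the most abundant collagen transcript in 16 of the 18 libraries, *Col6a1* in 1 and *Col8a1* in 1. The 5 members with the highest mean level per kilobase were *Col3a1* (type III fibrils, 13.9 CPM per kb), *Col4a1* (7.36), *Col6a1* (5.93), *Col4a2* (5.34) and *Col16a1* (3.43), an associated collagen of fibril surfaces. These 5 made up 35.1% to 62.6% of the summed collagen level per kb in a library. At the low end, *Col4a4*, *Col4a3* and *Col24a1* averaged 0.0563, 0.0791 and 0.0954 CPM per kb.

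Summed over the 37 genes, collagen reads were 652 ± 140 CPM in WT control (SD, n = 3), 867 ± 98.5 in *Cldn2*KO control, 247 ± 40.5 in WT recovery, 264 ± 37.9 in *Cldn2*KO recovery, 477 ± 84.1 in WT AOM/DSS and 583 ± 278 in *Cldn2*KO AOM/DSS. The highest recovery library, at 307 CPM, lay below the lowest control library, at 567 CPM, and below the lowest AOM/DSS library, at 420 CPM. *Cldn2*KO AOM/DSS 2 stood apart from its group at 903 CPM. The 10 fibrillar genes gave the largest share of these reads in all 6 groups, from 36.3% ± 3.31 in *Cldn2*KO recovery to 53.3% ± 5.6 in WT AOM/DSS, and the 6 type IV genes gave 15.3% ± 1.72 in WT recovery to 23.7% ± 2.51 in *Cldn2*KO control. Calculated per kb, the fibrillar shares were lower, at 28.5% ± 4.16 and 44.3% ± 5.8 in the same groups.

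**Figure D1:**
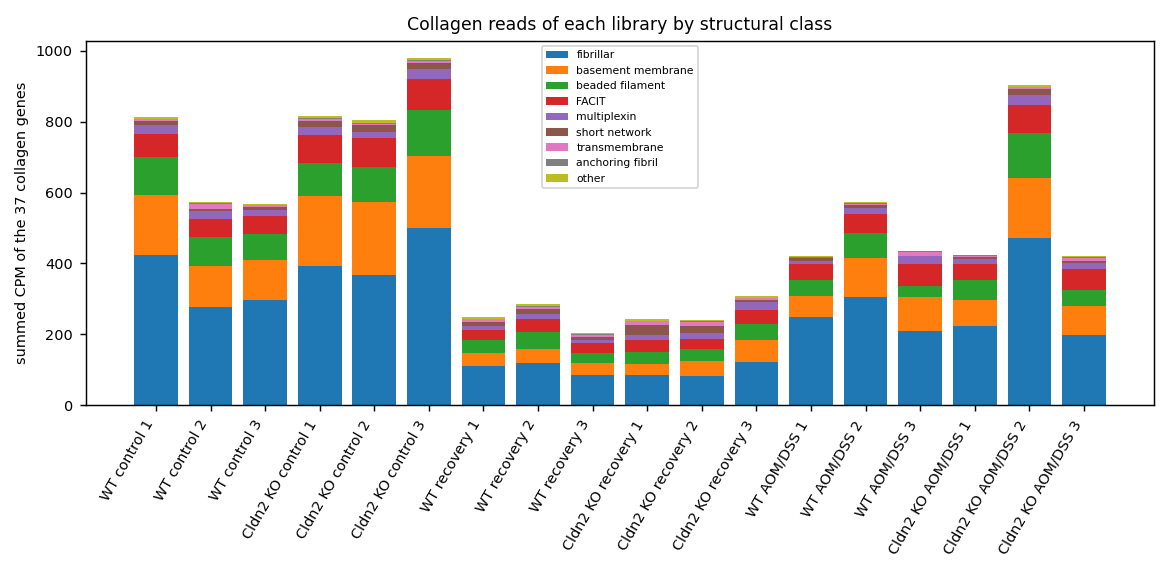
Summed CPM of the 37 collagen genes in each of the 18 libraries (y axis, linear), stacked by structural class. The 6 recovery libraries reach 204 to 307 CPM, the 6 control libraries 567 to 980 CPM and the 6 AOM/DSS libraries 420 to 903 CPM.

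No collagen gene differed between *Cldn2*KO and WT past the threshold (adjusted p under 0.05 by edgeR's quasi-likelihood test, Benjamini-Hochberg over all genes tested) in any treatment. In controls 0 of 37 members were called against 1.17% of all genes, in recovery 0 of 37 against 0.974%, and after AOM/DSS 0 of 37 against 0.0059%. At an unadjusted p under 0.05 by edgeR there were 4, 2 and 3 members, beside 2223, 3371 and 949 of the 16937 genes tested. A log2 difference above 0 was found for 29, 22 and 27 of the 37. DESeq2 called none in the 3 comparisons, whereas limma-voom with sample weights called 6 higher in *Cldn2*KO controls (*Col4a1*, *Col7a1*, *Col8a2*, *Col16a1*, *Col20a1* and *Col28a1*), 2 higher in *Cldn2*KO recovery (*Col5a3* and *Col9a2*) and none after AOM/DSS. The shares over all genes are those of edgeR. Shares for DESeq2 and limma-voom are not given here or below, so their counts of members lack a background. The median log2 difference between genotypes was 0.22 over the members in controls, 0.16 in recovery and 0.26 after AOM/DSS, beside -0.006, 0.004 and -0.004 over all genes tested. Of the smooth muscle markers, 12 of 12 had a log2 difference above 0 in controls (median 0.90) and after AOM/DSS (median 1.15), but 3 of 12 in recovery (median -0.13), where the median of the collagens was above 0. The test called none of them, with 1, 7 and 1 at an unadjusted p under 0.05 by edgeR in controls, AOM/DSS and recovery. Their summed level was 4120 to 6140 CPM in WT controls and 8330 to 10700 CPM in *Cldn2*KO controls, which did not overlap, and their part in the collagen values was not tested. Of all the marker lists, edgeR called 1 gene between genotypes (*Cd3e*, an immune marker lower in *Cldn2*KO controls).

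The smallest adjusted p in controls belonged to *Col20a1*, a fibril-associated chain, with 3.66, 1.37 and 2.69 CPM in WT and 5.87, 6.94 and 6.19 CPM in *Cldn2*KO. The groups did not overlap, and the log2 difference was 1.28 ± 0.442 (SE) with an adjusted p of 0.195. This gene was chosen after its values were seen. Whether the response to treatment differed between the genotypes was tested by interaction terms, which called 0 of 37 members for recovery (0.13% of all genes, 3 members at an unadjusted p under 0.05, smallest adjusted p 0.175) and 0 of 37 for AOM/DSS (0.0118%, 0 members, smallest adjusted p 0.615). DESeq2 called none for either term, and limma-voom called 1 for recovery (*Col28a1*) and none for AOM/DSS.

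The most abundant collagen genes were lower in recovery than in control in both genotypes. In WT mice 15 of 37 members were lower in recovery than in controls, where 12.2% of all genes were lower, and 0 were higher, where 10.0% were. No member was higher at an unadjusted p under 0.05, nor by DESeq2, and limma-voom called 1 higher (*Col25a1*). In *Cldn2*KO mice 15 members were lower (10.0% of all genes) and 1, *Col25a1*, was higher (9.43%). There limma-voom also called *Col11a1* higher. The median log2 fold change of the members was -1.07 in WT and -0.92 in *Cldn2*KO, beside -0.039 and 0.004 over all genes tested. Counts were simulated for the WT comparison with 198 of 16566 genes changed. There the test recovered 12 of 100 genes changed 2-fold and 89 of 98 changed 4-fold. The data gave 3767 calls among 16937 genes, so the adjustment set a looser limit on p than in the simulation. The recovered shares therefore do not give the power of the test in the data. *Xist* was above 100 CPM in 4 of the 6 recovery libraries and in no control. With a term for *Xist* above 100 CPM in the fit, 13 members were lower in WT recovery (*Col4a5* and *Col6a2* were lost) and 14 in *Cldn2*KO recovery (*Col8a2* was lost, as was *Col25a1*, the member that was higher). In bulk tissue, fewer cells of a type and less RNA per cell cannot be told apart.

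**Figure D2:**
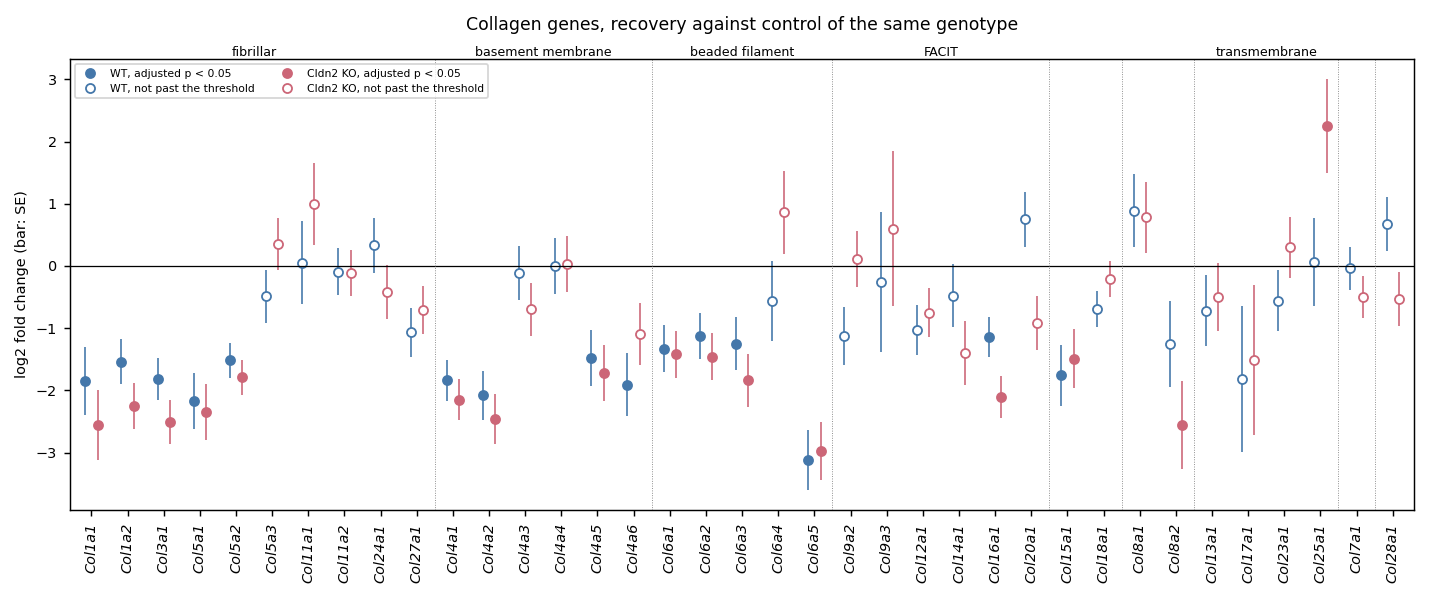
Log2 fold change (y axis) with its SE for the 37 collagen genes (x axis, grouped by structural class) in recovery against control, in WT (blue) and *Cldn2*KO (red); filled points have an adjusted p under 0.05. The 15 filled WT points and 15 of the 16 filled *Cldn2*KO points lie below 0; the exception is *Col25a1*.

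Of the 10 fibrillar genes, the same 5 fell in both genotypes: *Col1a1* and *Col1a2*, the chains of type I collagen, *Col3a1*, and *Col5a1* and *Col5a2*, chains of type V collagen, which nucleates type I fibrils. A further type V chain, *Col5a3*, was not called in either genotype. *Col3a1* (ENSMUSG00000026043, GRCm38 chr1:45311538-45349706, plus strand) had 240, 161 and 170 CPM in WT controls and 58.2, 62.7 and 40.5 CPM in WT recovery. In *Cldn2*KO it had 201, 188 and 266 CPM in controls and 31.2, 26.8 and 57.2 CPM in recovery. Every control library was above every recovery library, and the log2 fold change was -1.82 ± 0.342 in WT (adjusted p = 0.00262) and -2.51 ± 0.35 in *Cldn2*KO (adjusted p = 0.000496).

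*Col1a1* (ENSMUSG00000001506, chr11:94936224-94953042, plus strand) had 33.3, 10.1 and 18.8 CPM in WT controls, 6.23, 7.03 and 4.02 CPM in WT recovery, 31.3, 30.7 and 40.2 CPM in *Cldn2*KO controls and 3.16, 3.67 and 10.4 CPM in *Cldn2*KO recovery. The WT control libraries were spread over a wide range, and WT control 2 was closest to recovery. The log2 fold change was -1.85 ± 0.55 in WT (adjusted p = 0.0263) and -2.56 ± 0.559 in *Cldn2*KO (adjusted p = 0.00566). The WT call was lost without WT control 1 or without any of the WT recovery libraries (adjusted p 0.0534 to 0.135), and the *Cldn2*KO call was kept without each library in turn.

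*Col5a1* (ENSMUSG00000026837, chr2:27886425-28039514, plus strand) had 21.7, 7.53 and 16.9 CPM in WT controls, 4.19, 2.8 and 3.19 CPM in WT recovery, 24.5, 27.1 and 23.8 CPM in *Cldn2*KO controls and 3.53, 5.15 and 6.05 CPM in *Cldn2*KO recovery. Recovery libraries did not overlap the controls, with log2 fold changes of -2.17 ± 0.448 (adjusted p = 0.00428) and -2.35 ± 0.445 (adjusted p = 0.00239). The other 5 fibrillar genes (*Col5a3*, *Col11a1*, *Col11a2*, *Col24a1* and *Col27a1*) did not pass the threshold in either genotype.

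The sequences upstream of *Col3a1* and *Col5a1*, which fell, and of *Col8a1*, which did not pass the threshold, are shown because *Col3a1* and *Col5a1* were called lower in both genotypes and *Col8a1* had the highest log2 fold change of all members in WT. Each runs 5′ to 3′ on the strand of the gene over the 250 bases before the start site given by RefSeq (GRCm38.p6), at chr1:45311288-45311537 (plus strand), chr2:27886175-27886424 (plus strand) and chr16:57754738-57754987 (minus strand). Capitals mark the TATA box letters TATAAA, the CCAAT letters of a CCAAT box and the GC box letters GGGCGG, each searched on both strands.
Col3a1: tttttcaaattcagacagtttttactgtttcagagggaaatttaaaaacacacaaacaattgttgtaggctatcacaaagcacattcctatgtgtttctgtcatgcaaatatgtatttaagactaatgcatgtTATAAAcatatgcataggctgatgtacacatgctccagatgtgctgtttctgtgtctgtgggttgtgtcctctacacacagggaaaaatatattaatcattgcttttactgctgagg
Col5a1: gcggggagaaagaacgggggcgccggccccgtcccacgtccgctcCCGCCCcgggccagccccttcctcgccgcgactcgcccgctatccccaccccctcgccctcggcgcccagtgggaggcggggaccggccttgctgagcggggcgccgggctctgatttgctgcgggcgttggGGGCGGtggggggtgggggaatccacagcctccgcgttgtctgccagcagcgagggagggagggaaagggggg
Col8a1: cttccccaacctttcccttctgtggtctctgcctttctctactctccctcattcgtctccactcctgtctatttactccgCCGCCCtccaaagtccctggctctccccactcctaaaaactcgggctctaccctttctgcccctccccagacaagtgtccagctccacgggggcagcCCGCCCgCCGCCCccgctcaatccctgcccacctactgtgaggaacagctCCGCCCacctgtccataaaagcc
*Col3a1* held TATAAA with its first base 117 bases before the start and none of the other motifs, while *Col5a1* held GGGCGG at 2 positions and *Col8a1* at 4. Windows were at hand for 31 of the 37 members, of which 20 (64.5%) held GGGCGG, 12 (38.7%) CCAAT and 4 (12.9%) TATAAA, beside 32.7%, 33.8% and 12.4% of 32851 windows of the same length. A match describes these letters and does not mark a binding site.

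Type IV genes lie in head-to-head pairs, and the abundant pair fell together. *Col4a1* (ENSMUSG00000031502, chr8:11198423-11312826, minus strand) and *Col4a2* (ENSMUSG00000031503, chr8:11312805-11449287, plus strand) encode the chains of the ubiquitous type IV trimer, and their annotated starts overlap by 22 bases. *Col4a1* had 88.2, 54.3 and 61.6 CPM in WT controls, 19, 19.3 and 18.8 CPM in WT recovery, 108, 110 and 106 CPM in *Cldn2*KO controls and 17.2, 20.8 and 34.8 CPM in *Cldn2*KO recovery. *Col4a2* had 60, 35.0 and 38.1 CPM, 10.3, 12.3 and 8.87 CPM, 69.8, 76.6 and 80.9 CPM, and 7.34, 14.4 and 19.5 CPM in the same 4 groups. For both genes no recovery library reached the lowest control.

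The log2 fold change of *Col4a1* was -1.84 ± 0.327 in WT (adjusted p = 0.002) and -2.15 ± 0.329 in *Cldn2*KO (adjusted p = 0.000766). That of *Col4a2* was -2.08 ± 0.396 (adjusted p = 0.0029) and -2.46 ± 0.398 (adjusted p = 0.00102). Per kb, the ratio of *Col4a1* to *Col4a2* stayed between 1.16 and 2.08 over the 18 libraries.

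The X-linked pair was less abundant. *Col4a5* (ENSMUSG00000031274, chrX:141475385-141689234, plus strand) had 13.7, 19 and 9.27 CPM in WT controls, 5.25, 5.16 and 4.55 CPM in WT recovery, 14.4, 15.4 and 13.2 CPM in *Cldn2*KO controls and 4.34, 4.82 and 3.89 CPM in *Cldn2*KO recovery, and fell by 1.48 ± 0.448 (adjusted p = 0.0277) and by 1.72 ± 0.451 (adjusted p = 0.0149) on the log2 scale. Its partner *Col4a6* (ENSMUSG00000031273, chrX:141165403-141474076, minus strand) had 4.88, 6.55 and 3.73 CPM, 1.71, 0.789 and 1.48 CPM, 3.85, 3.94 and 4.04 CPM, and 1.23, 2.13 and 2.12 CPM in these groups. Recovery lay below control in both genotypes, with an adjusted p of 0.0161 in WT (log2 fold change -1.91 ± 0.51) and 0.135 in *Cldn2*KO (-1.10 ± 0.497).

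The *Col4a5* call in WT was lost without WT control 1, WT control 2 or any WT recovery library (adjusted p 0.0626 to 0.0862), and that of *Col4a6* without WT recovery 2 (0.0614). Per kb, the ratio of *Col4a5* to *Col4a6* ranged from 0.926 to 7.77 over the 18 libraries, a wider range than that of the chromosome 8 pair.

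*Col4a3* and *Col4a4*, the chains known from kidney glomeruli, start 72 bases apart on chromosome 1 (chr1:82586921-82722059, plus strand, and chr1:82448423-82586849, minus strand) and were near the detection limit. *Col4a3* had 0.747, 1.31 and 0.439 CPM in WT controls, 0.733, 0.789 and 0.769 CPM in WT recovery, 1.23, 0.999 and 0.646 CPM in *Cldn2*KO controls and 0.482, 0.835 and 0.443 CPM in *Cldn2*KO recovery. *Col4a4* had 0.629, 1.05 and 0.658 CPM, 0.61, 1.08 and 0.651 CPM, 0.789, 0.555 and 0.753 CPM, and 1.07, 0.789 and 0.295 CPM. Control and recovery overlapped for both genes, and 5.65% of the exon bases of *Col4a3* also belong to an antisense gene, whose reads cannot be told apart because the strand setting of the counting is not given in the sources used here.

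Of the 5 type VI genes, 4 fell in both genotypes (*Col6a1*, *Col6a2*, *Col6a3* and *Col6a5*), and *Col6a4* did not pass the threshold. *Col6a1* (ENSMUSG00000001119, chr10:76708792-76726168, minus strand) had 46.4, 30.6 and 28.6 CPM in WT controls, 13.3, 16.2 and 12.5 CPM in WT recovery, 37.9, 41.9 and 52.9 CPM in *Cldn2*KO controls and 16.3, 15.4 and 17.9 CPM in *Cldn2*KO recovery. Control and recovery did not overlap, with log2 fold changes of -1.33 ± 0.378 (adjusted p = 0.0213) and -1.42 ± 0.377 (adjusted p = 0.016). The WT call was lost without WT control 1, WT recovery 1 or WT recovery 3 (adjusted p 0.0601 to 0.0967) and the *Cldn2*KO call without *Cldn2*KO control 3 or *Cldn2*KO recovery 2 (0.0587 to 0.0598). The WT calls of *Col6a2* and *Col6a3* were also lost without WT control 1, WT control 3, WT recovery 1 or WT recovery 3, and that of *Col6a3* without WT recovery 2 (0.0531 to 0.165), and the *Cldn2*KO call of *Col6a2* without *Cldn2*KO control 3 or *Cldn2*KO recovery 2 (0.055 to 0.0571).

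*Col6a5* (ENSMUSG00000091345, chr9:105856078-105960643, minus strand), an alternative type VI chain, had the largest fall among the members called in WT and in *Cldn2*KO. It stood at 1.53, 2.75 and 1.59 CPM in WT controls and 0.203, 0.287 and 0.177 CPM in WT recovery. The *Cldn2*KO values were 1.77, 1.72 and 2.42 CPM in controls and 0.161, 0.325 and 0.246 CPM in recovery. The log2 fold change was -3.12 ± 0.479 (adjusted p = 0.000996) and -2.97 ± 0.464 (adjusted p = 0.000841), from 3 to 45 reads a library, and the call was kept under all 16 alternative fits in each genotype. No recovery library reached 10 reads. The 6 controls (29 reads or more each) and the 6 AOM/DSS libraries (15 or more) met the minimum of 3 libraries each on their own, so the membership of the gene did not depend on the group with which recovery was compared.

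**Figure D3:**
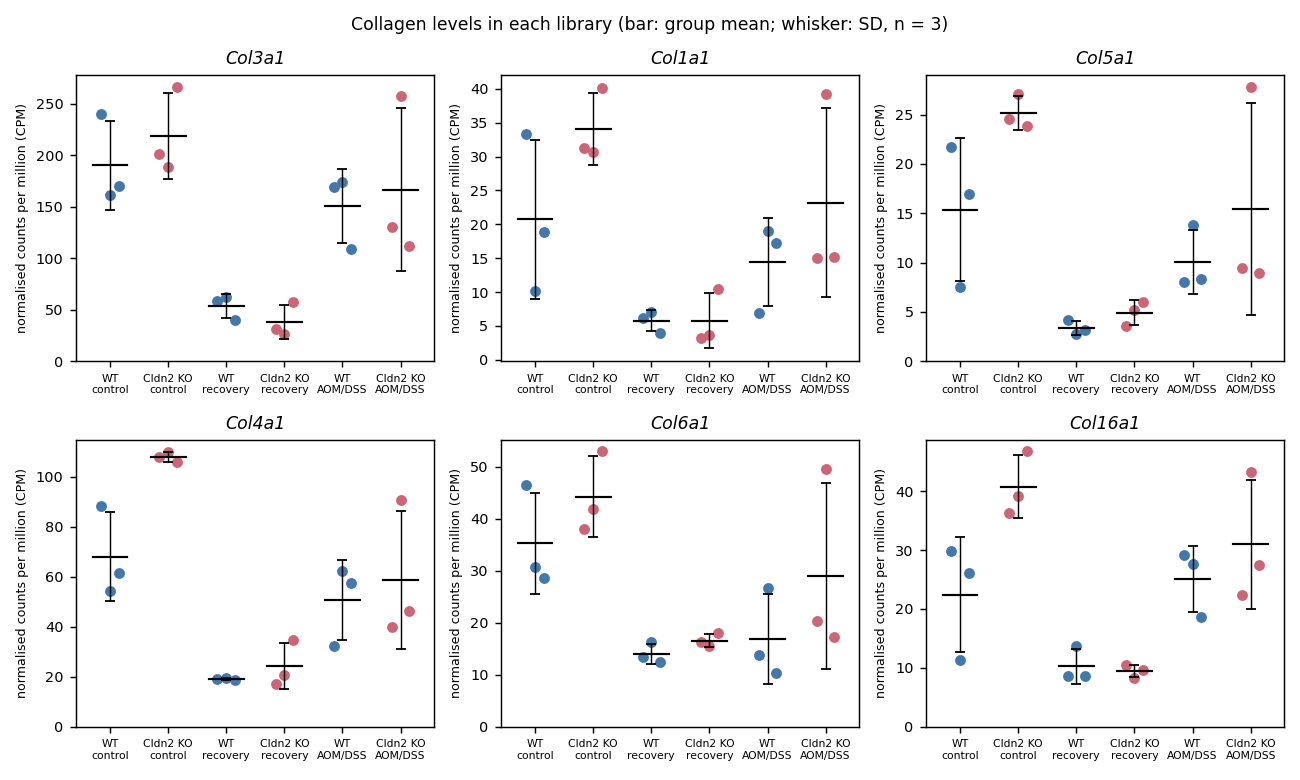
CPM (y axis, linear from 0) of 6 collagen genes in each library, by group (x axis); points are libraries, bars group means and whiskers the SD (n = 3). For *Col3a1*, *Col4a1* and *Col5a1* the 6 recovery points lie below every other point of the same genotype, and *Cldn2*KO AOM/DSS 2 is the highest point of its group in each panel.

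Among the fibril-associated collagens, *Col16a1* fell in both genotypes and 5 others did not pass the threshold in either. *Col16a1* (ENSMUSG00000040690, chr4:130047840-130099283, plus strand) had 29.8, 11.3 and 26.2 CPM in WT controls, 8.55, 13.7 and 8.52 CPM in WT recovery, 36.4, 39.3 and 46.8 CPM in *Cldn2*KO controls and 10.5, 8.3 and 9.55 CPM in *Cldn2*KO recovery. WT control 2 lay inside the WT recovery range, whereas the *Cldn2*KO groups were far apart. The log2 fold change was -1.14 ± 0.326 in WT (adjusted p = 0.022), a call lost without WT control 1, WT control 3, WT recovery 1 or WT recovery 3 (0.0721 to 0.113), and -2.11 ± 0.333 in *Cldn2*KO (adjusted p = 0.000898). The interaction term had an adjusted p of 0.267.

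*Col15a1*, a multiplexin of basement membrane zones, fell by 1.76 ± 0.492 (adjusted p = 0.0195) and 1.49 ± 0.478 (adjusted p = 0.0398) on the log2 scale, while *Col18a1*, the precursor of endostatin, did not pass the threshold (adjusted p = 0.097 and 0.665); the *Col15a1* calls were lost without WT control 1, WT recovery 1 or WT recovery 3 (0.0712 to 0.105) and without any *Cldn2*KO library but *Cldn2*KO recovery 3 (0.0505 to 0.131). Both genes were chosen after their values were seen. The short-network chains, of type VIII collagen, are *Col8a2* and *Col8a1*. *Col8a2* (ENSMUSG00000056174, chr4:126286793-126314330, plus strand) had 3.5, 3.67 and 2.63 CPM in WT controls, 1.14, 1.94 and 1.06 CPM in WT recovery, 6.61, 8.1 and 6.19 CPM in *Cldn2*KO controls and 2.03, 0.881 and 0.64 CPM in *Cldn2*KO recovery. The fall of 2.56 ± 0.705 in *Cldn2*KO passed (adjusted p = 0.0194; lost without *Cldn2*KO control 2, *Cldn2*KO recovery 2 or *Cldn2*KO recovery 3, 0.0521 to 0.0784), and the value in WT was -1.25 ± 0.69 (adjusted p = 0.206). Its usual partner *Col8a1*, chosen after its values were seen, had 7.43, 3.27 and 5.48 CPM in WT controls and 11.2, 13.1 and 5.91 CPM in WT recovery, and 10.1, 9.49 and 9.31 CPM in *Cldn2*KO controls and 27.7, 17.1 and 4.97 CPM in *Cldn2*KO recovery. The recovery libraries overlapped the controls, and the log2 fold changes of 0.89 ± 0.583 and 0.78 ± 0.575 did not pass (adjusted p = 0.292 and 0.376).

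*Col25a1* (ENSMUSG00000058897, chr3:130131501-130599877, plus strand), a membrane collagen known from neurons, was the 1 member that edgeR called higher in recovery, in *Cldn2*KO only. By limma-voom it was called higher in both genotypes, and *Col11a1* in *Cldn2*KO. In *Cldn2*KO *Col25a1* rose from 1.18, 0.888 and 0.915 CPM in controls to 5.03, 6.03 and 3.2 CPM in recovery. The log2 fold change of 2.25 ± 0.751 (adjusted p = 0.0466) turned to -0.53 (adjusted p = 0.881) with a term for *Hoxb13* in the fit. In WT controls it had 1.22, 7.07 and 0.823 CPM and in WT recovery 4.03, 1.36 and 3.96 CPM, so that WT control 2 was above every recovery library of either genotype, and the log2 fold change was 0.07 ± 0.708. The *Cldn2*KO call was lost without any 1 of its 6 libraries (adjusted p 0.051 to 0.129), and the test of the difference between genotypes had an adjusted p of 0.268.

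WT control 2 was like the recovery libraries in its Hox genes, and the 15 members that fell in WT were compared with it directly. This library stood apart in other ways as well. Its adipocyte markers summed to 154 CPM, beside 10.7 to 15.2 CPM in the other 5 controls and 30 to 77.4 CPM in recovery, and its chi-square for each degree of freedom against WT controls 1 and 3 was 320 and 254, the highest of the 18 replicate pairs. Its smooth muscle markers summed to 4790 CPM, within the WT control range. It was above all 3 WT recovery libraries for 14 of the 15, the exception being *Col16a1*, at 1.1 to 12.4 times the WT recovery mean with a median of 2.7 times. The 15 members were called with WT control 2 among the controls, so its place above recovery was partly built into their choice. Without this library 14 members were called in WT. With a term for *Hoxb13* above 10 CPM in the fit, 7 members were called lower in WT recovery and 1 in *Cldn2*KO recovery, which rests on WT control 2 alone since each other group held 1 Hox state only. All 15 log2 fold changes called lower in each genotype stayed below 0 with the term, from -0.15 (*Col16a1*) to -3.62 (*Col6a5*) in WT and from -0.81 (*Col16a1*) to -3.79 (*Col6a5*) in *Cldn2*KO. Several calls were lost at folds of like size, such as *Col3a1* in *Cldn2*KO (-2.16, adjusted p = 0.109), *Col4a5* (-2.44, adjusted p = 0.153) and *Col8a2* (-2.81, adjusted p = 0.322), while *Col1a1* went from -2.56 to -1.20 and *Col5a1* from -2.35 to -0.99. The WT count was 8 without WT control 1, without WT recovery 1 and without WT recovery 3.

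After AOM/DSS 28 of 37 members in WT and 32 in *Cldn2*KO had a log2 fold change below 0 against control, but 1 passed the threshold. In WT that was *Col8a2* (1 of 37 members, beside 10.4% of all genes), which fell from the control values above to 0.678, 0.306 and 0.0946 CPM, a log2 fold change of -3.17 ± 0.766 (adjusted p = 0.0244). The groups did not overlap, and the call was lost without WT control 2 or WT AOM/DSS 3 (adjusted p 0.0596 to 0.101). In *Cldn2*KO 0 of 37 were called (0.195% of all genes), with 12 members at an unadjusted p under 0.05, and *Col8a2* had 0.571, 3.47 and 0.387 CPM (log2 fold change -2.22 ± 0.685, adjusted p = 0.161).

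Markers of other cells were called in the same comparison in WT. There 6 of 12 smooth muscle markers (median -1.44), 6 of 11 markers of enteric neurons and glia (median -1.89) and 4 of 10 colon epithelial markers (median -0.62) were lower than in control, beside 6.58% of all genes lower and 3.81% higher. Adipocyte markers were lower for 2 of 4 genes (median -4.46) and mesothelial markers for 2 of 6, with 1 higher (median -2.47), while 1 of 7 squamous markers was higher and 7 of 7 were above 0 (median 2.79). Fibroblast, endothelial and immune markers had no call by edgeR, with 2, 4 and 1 genes at an unadjusted p under 0.05 and medians of -0.49, -0.87 and -0.37. In *Cldn2*KO edgeR called no gene of these 9 lists. At an unadjusted p under 0.05 it had 10 smooth muscle, 2 neuron and glia, 3 mesothelial and 4 squamous markers and 0 of the other 5 lists, and the medians were -1.14, -0.86, -1.36 and 2.33 for these 4 lists, -0.17 for colon epithelium and 0.81 for adipocytes. The part of these cells in the collagen values was not tested.

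The count after AOM/DSS depended on the test. DESeq2 called 10 members in WT (2 higher, 8 lower) and 2 in *Cldn2*KO (*Col9a3* higher, *Col8a2* lower), and limma-voom with sample weights called 2 in WT (both lower) and 15 in *Cldn2*KO (3 higher, 12 lower). The shares of all genes called by these 2 tests are not given here, so the counts lack a background. *Col17a1* was among the higher calls of DESeq2 in WT and of limma-voom in *Cldn2*KO. It met the minimum of 3 libraries only through the AOM/DSS groups, so this direction was partly built into its choice. The medians of the members were -0.43 in WT and -0.48 in *Cldn2*KO, beside 0.008 and 0.006 over all genes tested. Without *Cldn2*KO AOM/DSS 2, the library with the most collagen reads in its group, 3 members were called lower in *Cldn2*KO. The WT count was 0 without WT control 2 or WT AOM/DSS 3, 2 without WT control 3 or WT AOM/DSS 1, and 3 without WT AOM/DSS 2.

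Set against recovery, many collagen genes were higher after AOM/DSS. In WT 11 of 37 members were higher (12% of all genes) and 1 was lower (12.4%), and in *Cldn2*KO 12 were higher (9.11%) and 3 lower (8.66%). The medians were 0.32 and 0.68, beside 0.039 and 0.02 over all genes. These comparisons use the same recovery libraries as those with controls, so the 2 sets of values are not independent, and *Hoxb13* separated recovery from AOM/DSS in all 12 libraries.

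**Figure D4:**
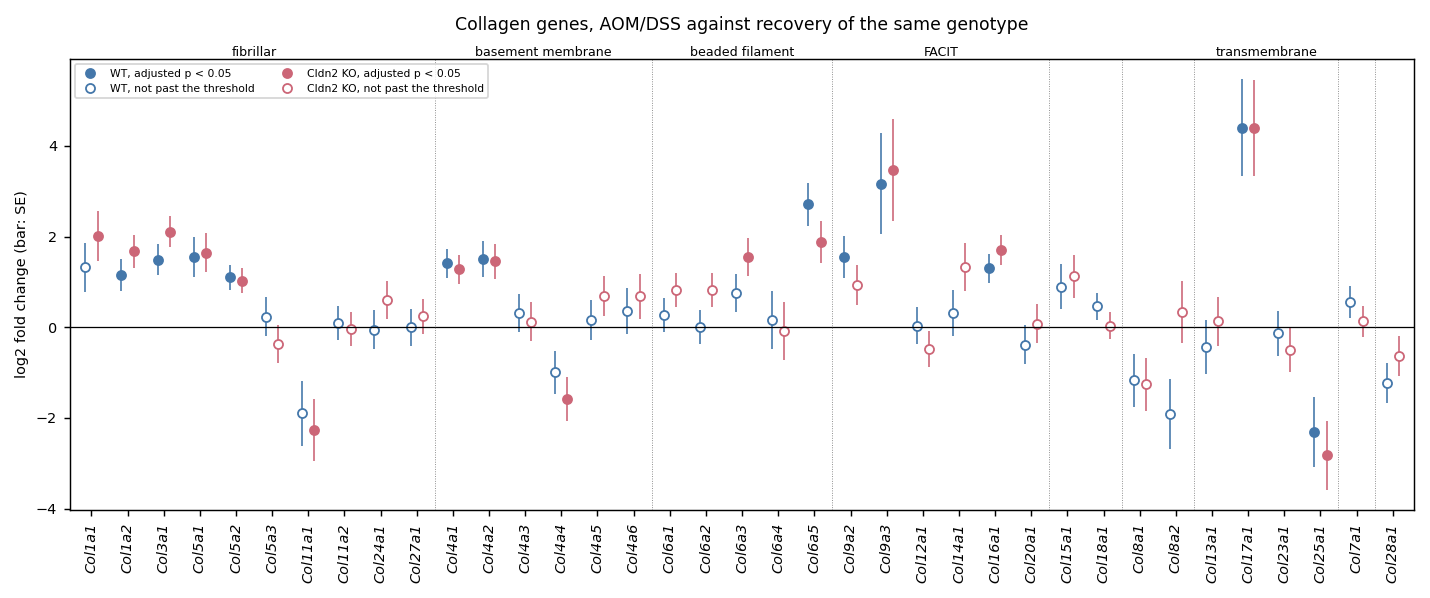
Log2 fold change (y axis) with its SE for the 37 collagen genes (x axis, grouped by structural class) in AOM/DSS against recovery, in WT (blue) and *Cldn2*KO (red); filled points have an adjusted p under 0.05. *Col17a1* and *Col9a3* lie highest and *Col25a1* lowest in both genotypes.

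Among the fibrillar genes *Col1a2*, *Col3a1*, *Col5a1* and *Col5a2* rose in both genotypes and *Col1a1* in *Cldn2*KO. *Col3a1* had 169, 174 and 109 CPM in WT AOM/DSS and 130, 257 and 112 CPM in *Cldn2*KO AOM/DSS, above every recovery library, with log2 fold changes of 1.49 ± 0.338 (adjusted p = 0.00691) and 2.11 ± 0.345 (adjusted p = 0.00169). *Col1a1* had 6.92, 19 and 17.3 CPM in WT and 15.1, 39.3 and 15.2 CPM in *Cldn2*KO, where the log2 fold change was 2.01 ± 0.549 (adjusted p = 0.0215). In WT 1 library overlapped recovery and the log2 fold change was 1.32 ± 0.544 (adjusted p = 0.0879). The *Cldn2*KO call of *Col1a1* was lost without *Cldn2*KO AOM/DSS 2, *Cldn2*KO recovery 1 or *Cldn2*KO recovery 2 (0.0873 to 0.0903).

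*Col5a1* had 8.04, 13.8 and 8.32 CPM in WT AOM/DSS and 9.46, 27.8 and 8.98 CPM in *Cldn2*KO AOM/DSS, with log2 fold changes of 1.56 ± 0.442 (adjusted p = 0.0202) and 1.65 ± 0.436 (adjusted p = 0.0178). *Col16a1* had 29.1, 27.6 and 18.6 CPM and 22.3, 43.3 and 27.4 CPM (1.30 ± 0.327, adjusted p = 0.0115, and 1.71 ± 0.329, adjusted p = 0.00362). All AOM/DSS libraries were above all recovery libraries for both genes. With the *Hoxb13* term neither gene was called: *Col5a1* stood at 0.20 in WT (adjusted p = 0.942) and 0.29 in *Cldn2*KO (adjusted p = 0.992), and *Col16a1* at -0.01 (adjusted p = 1.0) and 0.41 (adjusted p = 0.944). The *Col5a1* calls were lost without WT recovery 2, WT recovery 3 or WT AOM/DSS 2 (0.0607 to 0.0777) and without *Cldn2*KO recovery 1, *Cldn2*KO recovery 2 or *Cldn2*KO AOM/DSS 2 (0.0565 to 0.101). The WT call of *Col1a2* was lost without WT recovery 1, WT recovery 3, WT AOM/DSS 2 or WT AOM/DSS 3 (0.0529 to 0.105), and the *Cldn2*KO call of *Col5a2* without *Cldn2*KO recovery 2, *Cldn2*KO recovery 3 or *Cldn2*KO AOM/DSS 2 (0.0528 to 0.0809).

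*Col4a1* had 32.3, 62.1 and 57.6 CPM in WT AOM/DSS and 39.9, 90.5 and 46.1 CPM in *Cldn2*KO AOM/DSS, and *Col4a2* had 16, 39.0 and 34.2 CPM and 26.2, 58.4 and 29.0 CPM. Within each genotype both genes were above recovery in all 3 libraries, and *Col4a1* rose by 1.41 ± 0.324 (adjusted p = 0.00715) and 1.28 ± 0.321 (adjusted p = 0.0142, lost without *Cldn2*KO recovery 1, *Cldn2*KO recovery 2 or *Cldn2*KO AOM/DSS 2, 0.0618 to 0.0647). The log2 fold changes of *Col4a2* were 1.51 ± 0.39 (adjusted p = 0.0134) and 1.46 ± 0.386 (adjusted p = 0.0182), of which the first was lost without WT recovery 3 or WT AOM/DSS 2 (0.0506 to 0.0518) and the second without *Cldn2*KO recovery 1, *Cldn2*KO recovery 2 or *Cldn2*KO AOM/DSS 2 (0.0561 to 0.0774).

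None of the other 4 type IV genes passed the threshold upward. *Col4a5* had 7.99, 6.87 and 1.84 CPM in WT AOM/DSS and 4.33, 11.7 and 4.93 CPM in *Cldn2*KO AOM/DSS, and *Col4a6* 1.36, 1.44 and 2.36 CPM and 1.09, 5.81 and 1.83 CPM, both overlapping recovery. *Col4a3* had 1.11, 0.7 and 1.04 CPM and 0.428, 0.811 and 0.669 CPM. *Col4a4* had 0.242, 0.482 and 0.426 CPM and 0.19, 0.325 and 0.176 CPM, and was lower than in recovery in *Cldn2*KO (log2 fold change -1.59 ± 0.487, adjusted p = 0.0345), a call lost without 4 of its 6 libraries (*Cldn2*KO recovery 1 and 2, *Cldn2*KO AOM/DSS 1 and 3, adjusted p 0.0946 to 0.15).

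*Col6a1* had 13.7, 26.7 and 10.3 CPM in WT AOM/DSS, overlapping recovery, and 20.3, 49.6 and 17.2 CPM in *Cldn2*KO AOM/DSS, where 1 library was within the recovery range (adjusted p = 0.141). *Col6a5* had 1.74, 1.84 and 0.804 CPM and 1.28, 0.974 and 0.528 CPM, above recovery in all 6 libraries. Its log2 fold change was 2.71 ± 0.478 in WT (adjusted p = 0.00203) and 1.88 ± 0.465 in *Cldn2*KO (adjusted p = 0.0131, and 0.0555 without *Cldn2*KO recovery 1). *Col6a3* was also called higher in *Cldn2*KO, a call lost without *Cldn2*KO recovery 1, *Cldn2*KO recovery 2 or *Cldn2*KO AOM/DSS 2 (0.082 to 0.108).

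*Col9a3* (ENSMUSG00000027570, chr2:180597790-180622189, plus strand), a chain of the cartilage collagen type IX, was high in 3 of the 6 AOM/DSS libraries. It had 0.484, 1.58 and 17 CPM in WT AOM/DSS and 6.18, 0.487 and 9.44 CPM in *Cldn2*KO AOM/DSS, and 0.222 to 1.44 CPM over the 12 control and recovery libraries. The other 3 AOM/DSS libraries lay in or just above that range. Against recovery the log2 fold change was 3.17 ± 1.114 in WT (adjusted p = 0.0497) and 3.47 ± 1.134 in *Cldn2*KO (adjusted p = 0.0463), and neither group was apart from recovery. The WT call was lost without any WT recovery library or without WT AOM/DSS 3 (0.0891 to 0.691), and the *Cldn2*KO call without any *Cldn2*KO recovery library, *Cldn2*KO AOM/DSS 1 or *Cldn2*KO AOM/DSS 3 (0.0923 to 0.145).

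*Col9a2* (ENSMUSG00000028626, chr4:121039385-121055322, plus strand), another type IX chain, was higher in WT AOM/DSS, at 1.4, 2.45 and 6.38 CPM, than in WT recovery, at 1.26, 1.43 and 0.769 CPM (log2 fold change 1.56 ± 0.464, adjusted p = 0.0249). The groups overlapped by 1 library, and the call was lost without WT recovery 1, WT recovery 3 or WT AOM/DSS 3 (0.0543 to 0.186). In *Cldn2*KO it had 5.66, 3.44 and 5.95 CPM after AOM/DSS and 2.89, 2.83 and 2.17 CPM in recovery (adjusted p = 0.156).

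*Col17a1* (ENSMUSG00000025064, chr19:47646344-47692094, minus strand), the hemidesmosome collagen of basal epithelial cells, was chosen after its values were seen. It had 0.629, 1.44 and 3.83 CPM in WT AOM/DSS, 1.05, 0.422 and 4.09 CPM in *Cldn2*KO AOM/DSS. No recovery library had more than 0.122 CPM. The gene had 10 reads or more in all 6 AOM/DSS libraries, in WT controls 1 and 3 (10 reads each) and in no recovery library. It thus met the minimum of 3 libraries only through the AOM/DSS groups, so a difference from recovery in this direction was built into its choice, and its log2 fold changes of 4.4 ± 1.07 in WT and 4.4 ± 1.061 in *Cldn2*KO are given as a description, without a p. It is among the members counted as higher in both genotypes, and was not called in *Cldn2*KO without *Cldn2*KO AOM/DSS 3. With the *Hoxb13* term the direction turned in both genotypes (log2 fold change -1.91). Squamous epithelial markers (10 genes, 7 tested, *Krt5*, *Trp63* and *Ivl* too low to test) moved beside *Col17a1* and in part beside *Col9a3*: their summed level was 39.7 to 67.2 CPM in WT AOM/DSS 2 and 3 and *Cldn2*KO AOM/DSS 1 and 3, and 3.01 to 12.3 CPM in the other 14 libraries. In WT AOM/DSS 2 *Col9a3* was only just above its control and recovery range. The part of the squamous markers in these 2 results was not tested.

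**Figure D5:**
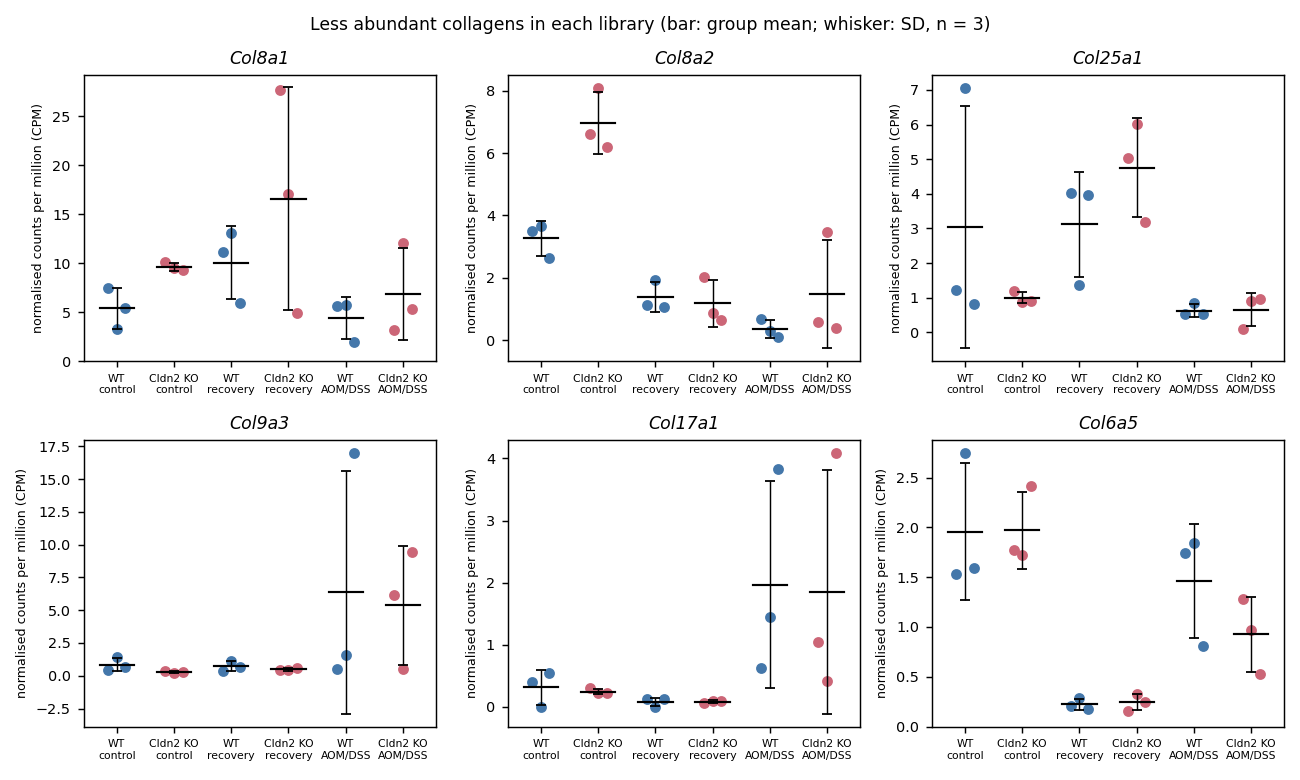
CPM (y axis, linear) of 6 less abundant or differently behaving collagen genes in each library, by group (x axis); points are libraries, bars group means and whiskers the SD (n = 3), which can reach below 0. *Col9a3* is at 6.18 CPM or more in 3 AOM/DSS libraries and at 1.58 CPM or less in the other 15, and *Col6a5* is at 0.325 CPM or less in all recovery libraries.

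*Col25a1* and *Col11a1* were lower after AOM/DSS than in recovery. *Col25a1* had 0.533, 0.832 and 0.52 CPM in WT AOM/DSS and 0.0951, 0.909 and 0.951 CPM in *Cldn2*KO AOM/DSS, below every recovery library (log2 fold change -2.31 ± 0.769, adjusted p = 0.0397, and -2.82 ± 0.763, adjusted p = 0.0199). These calls were lost without 5 of the 6 WT libraries (all but WT recovery 2, adjusted p 0.0719 to 0.115) and without *Cldn2*KO recovery 2 or *Cldn2*KO AOM/DSS 1 (0.0608 to 0.0629). With the *Hoxb13* term the value in WT turned to 0.47 (adjusted p = 0.895) and that in *Cldn2*KO was -0.05. Markers of enteric neurons and glia had medians of -1.46 and -0.86 in the same comparison, with 5 of 11 genes lower in WT (12.4% of all genes) and 1 in *Cldn2*KO, about the share over all genes (8.66%). Their part in the result was not tested.

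*Col11a1* (ENSMUSG00000027966, chr3:114030540-114220718, plus strand), a minor fibrillar chain, had 0.238, 1.56 and 0.493 CPM in *Cldn2*KO AOM/DSS and 4.44, 4.04 and 2.85 CPM in *Cldn2*KO recovery (log2 fold change -2.27 ± 0.687, adjusted p = 0.0332). In WT it had 0.581, 0.832 and 0.0473 CPM after AOM/DSS and 1.67, 1.43 and 2.42 CPM in recovery (adjusted p = 0.0653). Neither pair of groups overlapped, and the *Cldn2*KO call was lost without *Cldn2*KO recovery 1, *Cldn2*KO recovery 2, *Cldn2*KO AOM/DSS 1 or *Cldn2*KO AOM/DSS 3 (0.0804 to 0.119).

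Collagen genes that the edgeR test called in no treatment comparison were *Col4a3*, *Col5a3*, *Col6a4*, *Col7a1*, *Col8a1*, *Col11a2*, *Col12a1*, *Col13a1*, *Col14a1*, *Col18a1*, *Col20a1*, *Col23a1*, *Col24a1*, *Col27a1* and *Col28a1*. Of these, DESeq2 called *Col14a1*, *Col27a1* and *Col28a1* in a treatment comparison, and limma-voom called *Col7a1*, *Col8a1*, *Col12a1*, *Col14a1*, *Col18a1*, *Col20a1*, *Col27a1* and *Col28a1*. The counts against recovery moved with single libraries and with the Hox term. In WT 6 members were called without WT recovery 3. In *Cldn2*KO 6 were called without *Cldn2*KO recovery 1, 5 without *Cldn2*KO recovery 2 and 9 without *Cldn2*KO AOM/DSS 2. With the *Hoxb13* term 1 member was called in WT (*Col6a5*, 3.52, adjusted p = 0.0486) and 0 in *Cldn2*KO by edgeR. Most of the called folds were smaller with the term. In WT *Col1a2* went from 1.15 to 0.62, *Col3a1* from 1.49 to 1.14 and *Col4a1* from 1.41 to 0.95. In *Cldn2*KO *Col1a1* went from 2.01 to 0.65, *Col3a1* from 2.11 to 1.77, *Col4a1* from 1.28 to 0.82 and *Col11a1* from -2.27 to -0.67. *Col6a5* and *Col9a3* were larger with the term in both genotypes, at 3.52 and 4.53 in WT and 2.70 and 4.82 in *Cldn2*KO.

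The enzymes and chaperones that build collagen were tested alongside it. Of 26 biosynthesis genes tested, 8 were lower and 1 higher in WT recovery than in control (median -0.59), beside 12.2% lower and 10.0% higher over all genes. In *Cldn2*KO recovery 10 were lower and 2 higher (median -0.56), beside 10.0% and 9.43%. *Serpinh1*, the collagen chaperone HSP47, averaged 48.8 CPM in WT controls against 18.6 CPM in recovering WT colons (log2 fold change -1.39 ± 0.376, adjusted p = 0.017) and 84.5 and 13.6 CPM in *Cldn2*KO (-2.63 ± 0.391, adjusted p = 0.000683). The prolyl 3-hydroxylases *P3h1* and *P3h2* and the procollagen peptidase *Adamts2* also fell in both genotypes, by 1.47 to 2.99 on the log2 scale. After AOM/DSS against recovery, 2 of the 26 were higher in each genotype, beside 12% and 9.11% of all genes, *Colgalt1* and *Plod3* in WT and *Serpinh1* and *P3h1* in *Cldn2*KO, and 3 and 0 were lower (12.4% and 8.66% of all genes). Against control, 4 were lower and 1 was higher after AOM/DSS in WT (6.58% and 3.81% of all genes), and edgeR called 0 in *Cldn2*KO (9 at an unadjusted p under 0.05). Between genotypes the 1 call was *Ppib*, a proline isomerase of the endoplasmic reticulum, which averaged 125 CPM in *Cldn2*KO recovery and 208 CPM in WT recovery (log2 difference -0.73 ± 0.159, adjusted p = 0.0418).

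Of the 5 lysyl oxidase genes, whose enzymes cross-link collagen, 1 fell in WT recovery (*Loxl2*, -1.49 ± 0.372, adjusted p = 0.0113), beside 12.2% of all genes lower, and 3 in *Cldn2*KO recovery, beside 10.0%. Of 13 genes for proteins that bind or organise fibrils, 6 fell in WT recovery (median -1.30), where 12.2% of all genes fell, and 9 fell and 1 rose in *Cldn2*KO recovery (median -1.90), where 10.0% fell and 9.43% rose. Fibronectin (*Fn1*) averaged 138 CPM in WT controls and 25.4 CPM in WT recovery (-2.44 ± 0.426, adjusted p = 0.00186) and 315 and 35.7 CPM in *Cldn2*KO (-3.14 ± 0.436, adjusted p = 0.000496). Against recovery, *Fn1*, *Bgn* (biglycan) and *Thbs2* (thrombospondin-2) were higher after AOM/DSS in both genotypes, among 3 of the 13 called higher in WT (12% of all genes) and 5 in *Cldn2*KO (9.11%), where 1 was lower (*Thbs1*, named after its values were seen, beside 8.66%).

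Of 9 collagen receptor genes, 3 were lower and 1 higher in recovery in each genotype, beside 12.2% lower and 10.0% higher over all genes in WT and 10.0% and 9.43% in *Cldn2*KO. *Ddr2*, a receptor kinase for fibrillar collagen, *Itga1* and *Lair1* fell in recovery in both genotypes. *Itga2*, the integrin chain of the type I collagen receptor alpha2beta1, rose from 7.39 to 34.2 CPM in WT (2.22 ± 0.532, adjusted p = 0.00972) and from 3.29 to 61.7 CPM in *Cldn2*KO (4.22 ± 0.583, adjusted p = 0.000496). Of the 12 genes tested from the transforming growth factor beta pathway, which is known to drive collagen transcription, 3 fell in recovery in both genotypes (*Ltbp1*, *Smad2* and *Smad7*), beside 12.2% and 10.0% of all genes lower in WT and *Cldn2*KO. The activity of the pathway was not tested. Against recovery 5 in WT and 3 in *Cldn2*KO were higher after AOM/DSS, beside 12% and 9.11%.

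Smooth muscle cells and fibroblasts are known to make collagen. In recovery 9 of 12 smooth muscle markers were lower in WT (median -1.76) and 11 of 12 in *Cldn2*KO (median -2.88), beside 12.2% and 10.0% of all genes, and their summed level went from the control ranges given above to 870 to 2290 CPM in WT and 1000 to 1670 CPM in *Cldn2*KO. After AOM/DSS it ran from 635 to 3210 CPM in WT and from 2600 to 6360 CPM in *Cldn2*KO. In WT AOM/DSS the muscle markers overlapped recovery, as did *Col1a1*, *Col6a1*, *Col6a2* and *Col15a1*, while *Col3a1* and *Col4a1* did not. Of 11 fibroblast markers tested, 2 were lower in WT recovery and 5 in *Cldn2*KO recovery (medians -1.08 and -1.29), beside 12.2% and 10.0% of all genes. These markers had summed levels of 72.3 to 124 CPM in controls, 41.3 to 54.8 CPM in recovery and 56.2 to 135 CPM after AOM/DSS. Against recovery 0 muscle markers were called higher after AOM/DSS in WT by edgeR (0 at an unadjusted p under 0.05) and 6 in *Cldn2*KO, and 2 and 3 fibroblast markers, beside 12% and 9.11% of all genes. The part of these cells in the collagen results was not tested.

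The other marker lists were counted in the same way, beside shares over all genes in recovery of 12.2% lower and 10.0% higher in WT and 10.0% and 9.43% in *Cldn2*KO. Endothelial markers were lower for 3 of 8 genes in WT and 0 in *Cldn2*KO (1 at an unadjusted p under 0.05 by edgeR), markers of enteric neurons and glia for 0 of 11 in both (1 and 0 at an unadjusted p under 0.05 by edgeR), immune markers for 2 of 8 in both with 1 higher in *Cldn2*KO, and colon epithelial markers for 4 of 10 in WT and 0 in *Cldn2*KO with 1 higher. Squamous markers were called by edgeR in neither genotype (0 of 7, and 0 at an unadjusted p under 0.05), and mesothelial markers were higher for 1 of 6 in WT and 3 of 6 in *Cldn2*KO. Among adipocyte markers 1 of 4 tested was lower in WT and 1 higher in *Cldn2*KO. After AOM/DSS against recovery, where 12% of all genes were higher and 12.4% lower in WT and 9.11% and 8.66% in *Cldn2*KO, squamous markers were higher for 5 of 7 genes in WT and 1 in *Cldn2*KO and immune markers for 2 of 8 in both. Mesothelial markers were lower for 4 of 6 in both genotypes, adipocyte markers for 1 of 4 in both and colon epithelial markers for 2 of 10 in both, and edgeR called no endothelial marker (0 and 1 at an unadjusted p under 0.05). In recovery against control the 4 posterior Hox genes tested were lower in both genotypes, with medians of -10.33 and -10.97. After AOM/DSS against recovery they were higher, with medians of 10.72 and 10.96. Their part in the collagen results cannot be told apart from recovery beyond the values given for WT control 2.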

How the data were processed

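RNA-Seq reads of the 18 libraries were counted per gene by the authors, who aligned them to GRCm38; the paper's methods name TopHat2 and the submitters' processing notes name HISAT2 and featureCounts (Subread), and versions and strand setting are not given in the sources used here. The deposited values were raw counts per gene with the exon length of each gene in bases, in 2 columns (lanes) a library. The lanes were summed, since they differed little more than sampling noise allows (chi-square divided by its degrees of freedom was 1.08 to 1.18, while between replicates it was 11.9 or more). Symbols came from GENCODE M21, which held 47310 of the 47729 gene identifiers.

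Counts were fitted with edgeR 4.0.16 in R 4.3.3 (TMM scaling, filterByExpr, robust quasi-likelihood test, 1 mean for each of the 6 groups over all 18 libraries), with Benjamini-Hochberg adjustment over 16937 genes. The common dispersion was 0.0993. The test was run on simulated data first (16566 genes, 198 changed, 103 called, 2 of them falsely). CPM scale the counts to the TMM-adjusted library total, and CPM per kb divides by the exon length. SE is the absolute log2 fold change divided by the square root of F.

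Groups were taken from the labels, and the tests compared genotypes within each treatment, treatments within each genotype, and the genotypes' responses by interaction terms. Alternatives were other scalings (RLE, upper quartile), filters, thresholds and tests (DESeq2 1.42.0, limma 3.58.1 voom with sample weights), the first lane only, the groups compared only, terms for *Xist* above 100 CPM and for *Hoxb13* above 10 CPM, and leaving out each library. Library values are given for the 5 members highest per kb, for the type IV pairs and, per treatment comparison, for up to 5 called members in each direction with the largest changes and a mean of at least 1 CPM; *Col8a1*, *Col15a1*, *Col17a1*, *Col18a1* and *Col20a1* were added after their values were seen. The members, gene lists and tests were chosen with earlier results of these data known.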

Additional observations from a re-analysis of the deposited data

How the results depend on the processing

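Of 941 values of the 59 gene calls under the alternatives, 751 kept the call, 185 lost it and 5 changed sign. With limma-voom, called collagen genes numbered 6 between genotypes in controls, 2 between genotypes in recovery, 1 for the genotype by recovery interaction, 2 for AOM/DSS against control in WT and 15 in *Cldn2*KO. DESeq2 gave 10 and 2 for the last 2 comparisons, and for WT a threshold of 0.10 gave 9 and the fit of the compared groups alone gave 0. The shares of all genes called under these alternatives are not given here. With the *Hoxb13* term, counts were 7 (WT) and 1 (*Cldn2*KO) for recovery against control, 0 for WT AOM/DSS against control, and 1 (WT) and 0 (*Cldn2*KO) for AOM/DSS against recovery. Folds shrank for some genes, such as *Col5a1* in WT AOM/DSS against recovery (1.56 to 0.20), and hardly for others, such as *Col8a2* in WT AOM/DSS against control (-3.17 to -3.08, adjusted p = 0.062). With that term 5 values changed sign: *Col25a1* in *Cldn2*KO recovery against control (-0.53) and, in AOM/DSS against recovery, *Col16a1* (-0.01), *Col25a1* (0.47) and *Col17a1* (-1.91) in WT and *Col17a1* (-1.91) in *Cldn2*KO. The cause was not tested. With the *Xist* term 8 of the 59 calls were lost and none changed sign. The lost calls were *Col4a5* and *Col6a2* (WT) and *Col8a2* and *Col25a1* (*Cldn2*KO) in recovery against control, and *Col9a2*, *Col25a1* (both WT) and *Col9a3* (both genotypes) in AOM/DSS against recovery.

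Leaving out each library gave 8 to 14 calls for recovery against control in WT and 11 to 15 in *Cldn2*KO, 0 to 3 for AOM/DSS against control in either genotype, and 6 to 13 in WT and 5 to 14 in *Cldn2*KO for AOM/DSS against recovery; genotype and interaction counts stayed at 0. Scaling alternatives moved the median of all genes by at most 0.097 on the log2 scale (upper quartile, -0.097, recovery against control in *Cldn2*KO). Numbers in the labels of the controls did not pair the libraries (correlations of deviations 0.157, 0.002 and 0.079), and with the replicate block 0 collagen genes were called between genotypes in controls. No paired analysis was possible in the other comparisons because their groups share no replicate numbers in the labels. For genes under 1 CPM, few reads limited every comparison.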
